A study of Drosophila melanogaster with 4 samples.

Results

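Dystroglycan (Dg, CG18250, FlyBase identifier FBgn0034072) was followed through ribosome footprints and mRNA of fly ovaries with and without NSUN2. It was taken from the tables by its identifier as 1 gene of 2860 listed. It was chosen by its own mRNA and footprint differences and its m5C level in these libraries, so its values and ranks are a description and carry no test. NSUN2 is a methyltransferase that places 5-methylcytosine (m5C) on cytosines of tRNA and of some mRNAs. The groups were ovaries of Drosophila melanogaster with the genotype NSUN2 KO and ovaries of wild-type flies, both in the W1118 strain. Each genotype had 1 poly(A) mRNA library and 1 library of ribosome footprints of 28 to 30 nt, the stretches of message that a ribosome shields from nuclease. The labels do not state the age of the flies, the kind of knockout allele or the number of animals behind a library. With 1 library per group, no difference has a replicate check.

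Dystroglycan is a transmembrane receptor that binds laminin and other matrix proteins outside the cell and dystrophin, which links to actin, inside it. The protein is decorated with O-linked mannose, on which matrix binding depends in vertebrates. In the Drosophila ovary, dystroglycan sits in the follicle cells, the epithelium that wraps each egg chamber, and in the germline. Loss of Dg there has been reported to disturb the basal and apical sides of the epithelium and the polarity of the oocyte. The RefSeq gene table places Dg on chromosome arm 2R with 4 transcripts. The deposited tables hold 1 value for the gene, so its isoforms were not told apart.

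Depth was inferred, since the deposited values are scaled. Whole reads were recovered from ratios of the values and are lower limits for each gene. They rest on an inferred constant, and an error in it would change the reads of 1 library against the other, and the counting intervals with them. In mRNA, the 2644 genes with recovered reads summed to at least 7696739 reads in the knockout and at least 3003139 in wild type. In footprints, 2829 genes summed to at least 2136686 reads in the knockout and at least 1113170 in wild type. By this recovery the knockout libraries were the deeper ones. The gene table paired 18 of the 2860 identifiers with a symbol. Neither the targeted gene nor any marker of germline, follicle cells, ovarian muscle, haemocytes or fat body was among them, so the knockout and the tissue were not checked here.

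Dg was a message of modest abundance. Its deposited mRNA value, which is scaled to depth and gene length, was 15.5 in NSUN2 KO ovaries and 22.2 in wild-type ovaries. It lay below the median of the listed genes in both libraries, at 0.461 of that median in the knockout and 0.663 of it in wild type. Among the 2860 genes, 19.9% had a lower mRNA value than Dg in the knockout and 31.3% in wild type.

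Its footprint values were high for such a message. Dg stood at 37.3 in knockout footprints and at 79.3 in wild-type footprints. That was 1.34 times the median listed gene in the knockout and 2.63 times in wild type. Footprint values below that of Dg were found for 58.2% of the genes in the knockout and 77.0% in wild type. In both assays the knockout library was the lower of the pair, as the plot of the 4 libraries shows.

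**Figure D1:**
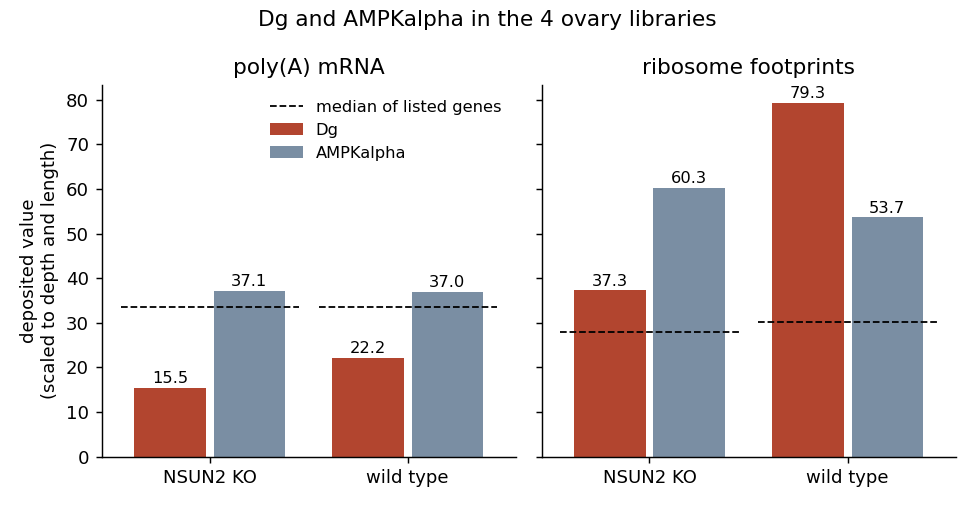
Deposited values (vertical axis, scaled to depth and length) of Dg and of AMPKalpha in mRNA (left) and footprints (right), 1 bar per library with NSUN2 KO before wild type; dashed lines mark the median of the listed genes. Dg is at 15.5 and 22.2 in mRNA and at 37.3 and 79.3 in footprints, while AMPKalpha has 37.1 and 37.0 in mRNA and 60.3 and 53.7 in footprints.

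The mRNA comparison asked whether the message itself was less abundant without NSUN2. Dg rested on at least 2949 recovered reads in the knockout and at least 1638 in wild type. Its log2 difference, knockout minus wild type, was -0.52 on the log2(value + 0.1) scale, 1.43-fold lower. The 95% counting interval, an exact Clopper-Pearson interval of the share of reads in the knockout, ran from 1.35-fold to 1.52-fold lower. Such intervals cover counting error only, since each group has 1 library. They can understate that error, since these reads carry no molecular identifiers and several can stem from 1 molecule. In whole ovaries, fewer cells of a type that carries Dg and less Dg RNA per cell cannot be told apart.

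This placed Dg toward the lower end of the genes, short of both the 1.5-fold and the 2-fold limit. The median log2 mRNA difference of all listed genes was 0.00. Dg was 212th from the lowest of 2860, so 7.41% of genes stood at or below it. At least 1.5-fold lower were 5.73% of listed genes and at least 2-fold lower 1.61%. Dg was 32nd from the lowest of the 505 genes with an m5C level of at least 0.6, where the median was 0.02. The 3 genes just below it in that group had log2 differences of -0.56 to -0.52, and the 3 just above had -0.51 to -0.49. Among 782 genes whose mean mRNA value was within 1.5-fold of its own, Dg was 79th, which is 10.1%.

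The footprint comparison asked whether ribosomes on the message differed. Dg had at least 420 recovered footprint reads in the knockout and at least 444 in wild type. The log2 difference was -1.09, 2.12-fold lower in the knockout. The counting interval ran from 1.86-fold to 2.44-fold lower. It reaches below 2-fold, and the spread between animals is unknown. Footprints at least 2-fold lower in the knockout were seen in 5.42% of listed genes, and at least 2-fold higher in 2.03%.

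Dg was 123rd from the lowest of 2860 genes in footprints, with 4.30% of genes at or below it. The median log2 footprint difference of all genes was -0.06. Among the 505 genes with an m5C level of at least 0.6 it was again 32nd from the lowest, 6.34% of that group. Of these 505, 36 were at least 2-fold lower, which is 7.13%. The 3 genes just below Dg in the group had log2 differences of -1.15 to -1.13, and the 3 just above had -1.08 to -1.03. Set beside 566 genes whose mean footprint value was within 1.5-fold of its own, Dg was 18th from the lowest. In that set the median was 0.01, the range ran from -1.61 to 2.17, and 3.71% were at least 2-fold lower.

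**Figure D2:**
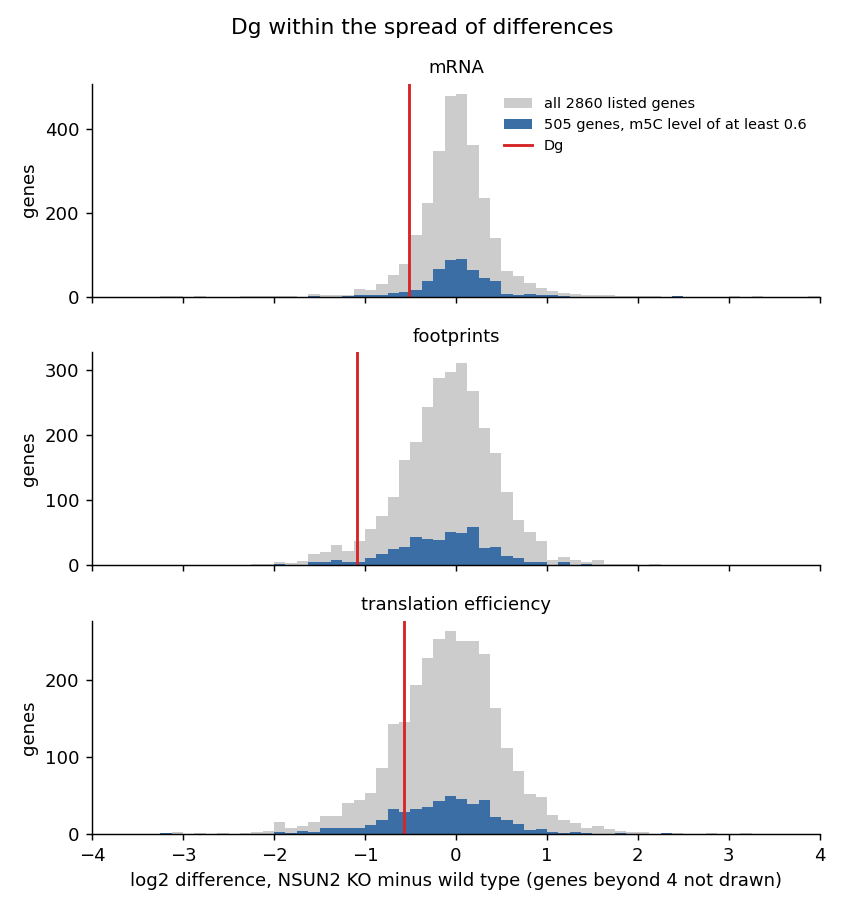
Number of genes (vertical axis) by log2 difference, NSUN2 KO minus wild type (horizontal axis), for mRNA, footprints and translation efficiency; grey bars are all 2860 genes, blue bars the 505 genes with an m5C level of at least 0.6, and the red line is Dg. Dg lies at -0.52, -1.09 and -0.57, in the lower tail of mRNA and footprints and nearer the centre in translation efficiency.

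Dg was lower in both assays at once. Dg included, 19 of 2860 genes were at or below it in mRNA and in footprints together, and 4 of the 505 with an m5C level of at least 0.6. The limits of these counts are the values by which Dg was chosen, so no rarity is read from them. The 2-fold limit in footprints was passed downward by 155 genes. Of these, 25 (16.1%), Dg among them, had an mRNA difference at or below that of Dg, against 7.41% of all listed genes. Another 60 (38.7%) had one above 0. The median log2 mRNA difference of these 155 was -0.08, against 0.00 over all listed genes. Read the other way, 212 genes were at or below Dg in mRNA. Of them, the same 25 (11.8%) were at least 2-fold lower in footprints, against 5.42% of all listed genes. Both shares describe the same overlap, its mRNA limit is the value of Dg itself, and no test of it was made.

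**Figure D3:**
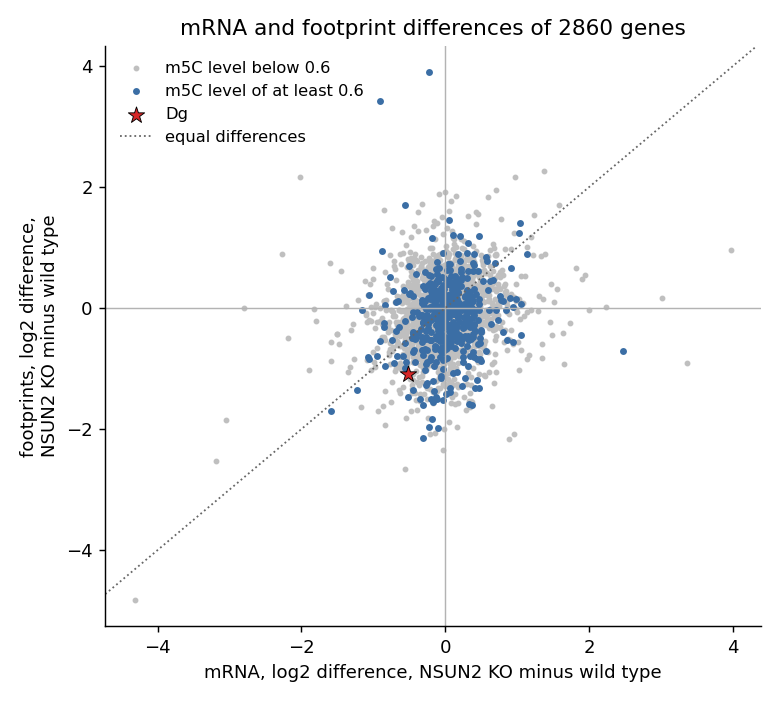
Each point is 1 of 2860 genes, with the log2 mRNA difference (horizontal axis) and the log2 footprint difference (vertical axis), NSUN2 KO minus wild type; blue points have an m5C level of at least 0.6, the star is Dg and the dotted line marks equal differences. Dg lies at -0.52 and -1.09, below 0 on both axes and below the line, with 18 genes as low or lower on both.

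The mRNA and footprint values together give translation efficiency, that is, footprints divided by mRNA. For Dg it was 2.40 in the knockout and 3.56 in wild type, against medians over all genes of 0.883 in the knockout and 0.899 in wild type. Dg was thus among the more heavily translated messages in both genotypes, at rank 515 from the top in the knockout and 351 in wild type. These levels rest on lengths the authors used for scaling, which the files do not state, and footprint and mRNA values may have been scaled by different lengths.

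The log2 difference in translation efficiency was -0.57, 1.48-fold lower in the knockout. Its 95% counting interval, from the summed counting variances of both assays, was -0.78 to -0.36. On the log2 scale the mRNA difference made up 47.6% of the footprint difference of Dg and translation efficiency the other 52.4%. At least 1.5-fold lower in translation efficiency were 18.2% of listed genes and at least 2-fold lower 6.89%. The counting interval of Dg spans the 1.5-fold limit, and some scalings described below put Dg past that limit. With values as deposited, Dg fell short of both limits, at rank 540 from the lowest, with 18.9% of genes at or below it. Among genes with an m5C level of at least 0.6 it was 120th of 505. Among 142 genes with both mean values within 1.5-fold of those of Dg it was 32nd, and the median there was -0.18.

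Most of these 155 genes had a lower translation efficiency than Dg in wild type and a larger difference between genotypes. Their median log2 translation efficiency was -1.23 in the knockout and -0.20 in wild type, while Dg had 1.26 in the knockout and 1.83 in wild type. Of the 155, 42 (27.1%) had a higher wild-type translation efficiency than Dg and 31 (20.0%) a higher wild-type footprint value. Over all listed genes, 87.7% had a lower wild-type translation efficiency than Dg and 77.0% a lower wild-type footprint value. The median log2 translation efficiency difference of the 155 was -1.22, and 14 of them (9.03%) had a higher one than Dg. Of all listed genes, 18.9% were at or below Dg in this difference. The 155 were chosen by low knockout footprints, which enter it.

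The listed m5C level of Dg, the highest level given for the gene, was 0.968. It was the 10th highest of 2860, with a median of 0.269 and a highest level of 0.991 over all genes. The nearest levels were 0.970 above it and 0.966 below it. The sample, the position in the message and the coverage behind the level are not given, so it has no interval, and whether it depends on NSUN2 was not measured here. Of the 10 genes with a level at or above that of Dg, 4 were at least 2-fold lower in footprints, Dg among them, and 0 were at least 2-fold higher, where all listed genes gave 5.42% and 2.03%. The limit is the level of Dg itself, which was chosen for its low footprints, so nothing is read from this count. Among the 25 genes with a level of at least 0.95, which include these 10, the same 4 (16.0%) were at least 2-fold lower in footprints. This is not a second count, and nothing is read from it either. In the 10 genes, log2 footprint differences ran from -2.15 to 0.18 and log2 mRNA differences from -0.52, which was Dg, to 1.06. Dg also had the highest wild-type translation efficiency of the 10 and the second highest wild-type footprint value. Among all 94 genes with a level of at least 0.9, Dg was 5th from the lowest in mRNA, 8th in footprints and 22nd in translation efficiency.

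**Figure D4:**
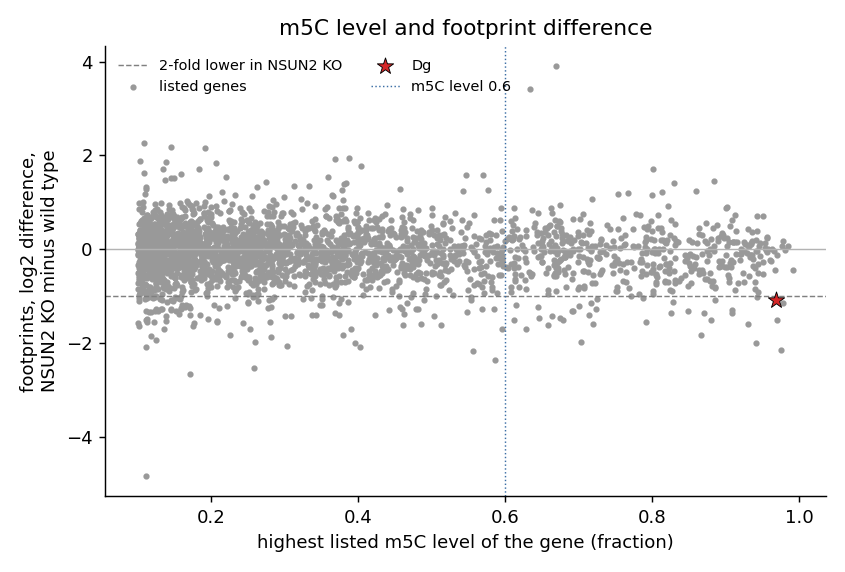
Each point is 1 of 2860 genes, with its highest listed m5C level as a fraction (horizontal axis) and its log2 footprint difference, NSUN2 KO minus wild type (vertical axis); the dashed line is 2-fold lower, the dotted line the level of 0.6, and the star is Dg. Dg sits at 0.968 and -1.09, near the right edge and just under the dashed line; the 25 genes with a level of at least 0.95 have a median of -0.04.

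Partners of Dg were sought among 5 lists. They covered the dystrophin complex (8 symbols), enzymes that add mannose to dystroglycan (2), matrix ligands and basement membrane (11), integrin adhesion (10) and epithelial and oocyte polarity (18). Only AMPKalpha, of the polarity list, could be paired with an identifier of the tables, so the lists give no count of changes. Since 18 of the 2860 identifiers had a symbol, other partners may be listed without a name. Their absence is not shown, and AMPKalpha does not stand for them. AMPKalpha encodes the catalytic part of a kinase that senses low energy. Its mRNA value was 37.1 in the knockout and 37.0 in wild type, and its footprint value was 60.3 in the knockout and 53.7 in wild type.

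The AMPKalpha values were close between genotypes. Its log2 difference was 0.01 in mRNA, with a counting interval from -0.09 to 0.10, and 0.17 in footprints, with an interval from -0.04 to 0.38. The intervals of Dg ran from -0.61 to -0.43 in mRNA and from -1.29 to -0.89 in footprints. The genes were not tested against each other. The listed m5C level of AMPKalpha was 0.167.

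Likeness to Dg was measured as the Euclidean distance over the 4 log2(value + 0.1) values. The nearest gene, FBgn0036448, was at a distance of 0.352, where the median gene was at 3.25. It had mRNA values of 17.1 in the knockout and 19.1 in wild type and footprint values of 35.9 in the knockout and 67.5 in wild type. Its log2 mRNA difference of -0.16 was smaller than that of Dg, and its log2 footprint difference was -0.91. The 5 nearest genes had log2 footprint differences of -1.31 to -0.57, log2 mRNA differences of -0.27 to 0.18 and m5C levels of 0.125 to 0.327. Their footprint values chose them, so the direction of their footprint differences follows from the measure. With the distance taken over the 2 differences alone, the nearest gene was FBgn0033924, with -0.50 in mRNA and -1.08 in footprints at an m5C level of 0.490. The 5 nearest genes by that measure had m5C levels of 0.123 to 0.771, and 0 of the 5 were shared between the measures. The tables and the gene table do not pair either identifier with a name.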

How the data were processed

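Poly(A) mRNA and ribosome footprints were measured in 4 libraries, 1 per genotype and assay. Per the labels' protocols, footprints came from single ribosomes after micrococcal nuclease, with ribosomal RNA depleted, and mRNA from a directional kit. Per the submitters' processing notes, TopHat2, HTSeq, cutadapt and the build dm3 were used, with no version named. The deposited expression value is a signal scaled to depth and length, not counts. The files do not name the scaling. The deposited m5C level is a fraction, the same in all tables.

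Differences were taken as log2(value + 0.1), knockout minus wild type, for all 2860 genes, with Python 3.11.15, pandas 2.3.3 and scipy 1.17.1. This scale understates differences of low genes. A gene counted as lower or higher at 2-fold or 1.5-fold, without p-values. Within an assay, value ratios between libraries are ratios of whole reads times a constant. The constant was the one that most often gave ratios of small whole numbers among the lowest genes, then refined over all genes. It was to be moved by a small prime factor where reduced reads of 1 library were divisible by it far more often than those of the other. At a relative tolerance of 1e-09, divisibility by 2 and by 3 was then similar in knockout and wild type (33.6% and 31.5% by 2 in mRNA, 32.6% and 34.4% in footprints). A factor shared by both libraries was restored from whole lengths as the smallest that fits, giving reads for 92.4% of genes in mRNA and 98.9% in footprints. For Dg these factors were 3 in mRNA and 12 in footprints. A larger shared factor would narrow the counting intervals. The constant is inferred from these ratios and this balance and not stated in the files. The recovery was also run on data simulated from reads and lengths it had recovered itself. That run assumes whole reads, so it cannot show whether the constant holds for the deposited values.

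The gene, the lists and the rule for named genes (Dg, list members with an identifier, 3 neighbours in rank on each side, and the 5 genes nearest in value) were chosen with earlier results of these data known. Unnamed identifiers are summarised. Other scalings, pseudocounts, filters and m5C limits were tried.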

Additional observations from a re-analysis of the deposited data

How the results depend on the processing

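No paired analysis was possible because neither genotype had a second library of an assay. Filters on genes cannot move the differences of Dg, and a scaling, which shifts all genes by 1 amount, cannot move its ranks beyond the effect of the pseudocount. Leaving out these 21 alternatives gave 48 values for the differences and ranks of Dg. Of these, 43 stayed within the 95% interval of the reported value and 5 did not. For a difference this is the counting interval, and for a share of genes a binomial interval over the genes of the set. The listed genes are not a random sample, so the latter is only a yardstick, and it is wide for small sets. No sign changed, but a share cannot change sign, and the shifts from scaling were smaller than the differences. Over the scalings and pseudocounts tried, the log2 difference of Dg ran from -0.53 to -0.47 for mRNA, from -1.17 to -1.02 for footprints and from -0.64 to -0.51 for translation efficiency, so footprints of Dg stayed past 2-fold lower in each of these settings. Translation efficiency of Dg passed 1.5-fold lower with values scaled to the total of the listed genes (-0.64) or to the upper quartile (-0.63). In the other settings it stayed short of that limit. The 5 values that moved were shares of genes at or below Dg. With a pseudocount of 1, which shrinks the differences of low genes, the share was 3.57% in footprints and 16.9% in translation efficiency. Requiring a mean of 100 or more recovered reads in both assays, which leaves fewer genes, gave 5.25% for mRNA, 3.03% for footprints and 17.3% for translation efficiency. That filter left 19 genes at least 2-fold lower and 31 higher for mRNA, 73 and 27 for footprints, and 107 and 44 for translation efficiency. Without it there were 46 and 49, 155 and 58, and 197 and 102. This filter, the scaling to recovered reads and the m5C level of at least 0.9 were chosen after seeing the data.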
